A study of Arabidopsis thaliana with 24 samples.

Results

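Salicylic acid signalling in Arabidopsis runs through a small set of proteins, and the transcripts of 10 of their genes are described here in seedlings that overexpressed the long noncoding RNA ELENA1 (OX) and in wild type (WT). The genes were taken by locus identifier from the table of read counts, which held 21407 loci. They are the receptors NPR1 (AT1G64280), NPR3 (AT5G45110) and NPR4 (AT4G19660), the NPR1-binding proteins NIMIN1 (AT1G02450), NIMIN2 (AT3G25882) and NIMIN3 (AT1G09415), and the basic leucine zipper factors TGA2 (AT5G06950), TGA3 (AT1G22070), TGA5 (AT5G06960) and TGA6 (AT3G12250). All 10 had enough counts to be tested. The study sequenced polyadenylated RNA from whole 2-week-old seedlings of the ecotype Col-0, grown on solid medium and then moved to liquid medium with 5 µM elf18. This peptide is the end of bacterial elongation factor Tu that the surface receptor EFR perceives. OX seedlings without elf18 (0 h) and after 1 h, 6 h and 12 h were compared with WT seedlings at the same 4 times, and each of these 8 groups had 3 biological replicates, which makes 24 libraries. Beyond the overexpressed RNA, the labels name no allele that sets OX apart, and neither the promoter nor the number of lines behind it. ELENA1 itself was not analysed here.

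Every treated seedling was moved to liquid and given peptide at once. In comparisons with 0 h, effects of elf18, of the move and of the hour of harvest therefore cannot be told apart. In RNA from whole seedlings, fewer cells of a type and less RNA per cell cannot be told apart either. Total counts ran from 18767661 to 85230211 per library, and replicate 3 of every group was the shallowest. Among the 10 genes the smallest count behind any value is that of NIMIN1 in the 0 h libraries. Per the labels' protocols, the replicates of a condition were pooled into the same well. In comparisons of genotypes and of times, effects of the well and of the group therefore cannot be told apart. Nothing in the labels says what made the replicates separate, and they may not be independent. The p-values therefore measure the spread between these libraries, not between wells. Leaf and root marker genes were all detected in every group.

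NPR1 is a salicylic acid receptor that acts as a transcriptional coactivator in the nucleus, while NPR3 and NPR4 bind the same hormone and act as corepressors and as adaptors for protein degradation. None of them binds DNA; they reach promoters through TGA factors, which recognise as-1-like elements built around the letters TGACG. NIMIN proteins bind NPR1 and dampen what it does, and transcripts of NIMIN1 and NIMIN2 are known to rise with salicylic acid. TGA2, TGA5 and TGA6 form 1 clade with overlapping roles in defence and in detoxification, and TGA3 belongs to another clade.

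The 300 bases before the annotated start of each gene were read from the TAIR10.1 assembly, since the deposited tables hold no coordinates and the submitters name TAIR10. Each window was searched on both strands for TGACG, the core that TGA factors recognise, and for TTGAC, the core of the W box that WRKY factors recognise. The 4 windows printed belong to the genes that moved most with time or differed between genotypes, and to NPR4 with 2 matches to TGACG. They are written 5′ to 3′ on the strand of the gene, with matches to either core, on either strand, in capitals. NPR1 lies on the minus strand and its window is chr1:23855659-23855958. The window of NPR4, minus strand, is chr4:10698812-10699111. The window of NIMIN1, minus strand, is chr1:498540-498839. The window of NIMIN2, minus strand, is chr3:9471040-9471339.
NPR1: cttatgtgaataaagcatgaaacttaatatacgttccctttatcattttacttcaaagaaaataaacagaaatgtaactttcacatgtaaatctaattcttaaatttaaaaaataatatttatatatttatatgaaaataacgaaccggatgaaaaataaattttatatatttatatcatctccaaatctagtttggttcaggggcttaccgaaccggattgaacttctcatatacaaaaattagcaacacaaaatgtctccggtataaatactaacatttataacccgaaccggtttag
NPR4: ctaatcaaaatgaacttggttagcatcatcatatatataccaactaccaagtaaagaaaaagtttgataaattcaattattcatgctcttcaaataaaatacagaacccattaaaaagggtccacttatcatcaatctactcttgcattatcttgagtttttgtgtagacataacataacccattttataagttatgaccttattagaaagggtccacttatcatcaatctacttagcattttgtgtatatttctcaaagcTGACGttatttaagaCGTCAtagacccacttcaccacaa
NIMIN1: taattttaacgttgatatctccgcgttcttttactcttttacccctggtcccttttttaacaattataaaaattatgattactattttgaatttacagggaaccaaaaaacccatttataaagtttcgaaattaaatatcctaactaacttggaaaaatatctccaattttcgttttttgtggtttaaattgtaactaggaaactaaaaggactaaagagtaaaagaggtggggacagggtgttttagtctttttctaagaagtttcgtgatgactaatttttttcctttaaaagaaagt
NIMIN2: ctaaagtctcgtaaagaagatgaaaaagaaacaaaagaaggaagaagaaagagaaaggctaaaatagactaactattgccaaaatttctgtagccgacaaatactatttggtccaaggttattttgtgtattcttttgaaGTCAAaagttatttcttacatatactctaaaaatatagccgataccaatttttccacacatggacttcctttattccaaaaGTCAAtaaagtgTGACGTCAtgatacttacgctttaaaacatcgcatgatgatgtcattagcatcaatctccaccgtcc

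TGACG was present in 4 of the 10 windows. NIMIN2 held 2 overlapping copies on opposite strands, between 67 and 60 bases before its start. NPR4 held 2 separate copies, at 39 to 35 and at 24 to 20 bases before its start, and NPR3 and TGA6 held 1 each. Over 21321 protein-coding genes, 22.1% of windows of this length held TGACG. The W-box core TTGAC was present in 5 of the 10 windows, those of NPR3, NIMIN2, TGA2, TGA5 and TGA6, against 50.8% of all windows. In TGA6 1 copy of each core overlapped in the joint run TTGACG, which 8.5% of all windows held. The windows of NPR1, NIMIN1, NIMIN3 and TGA3 held neither run of letters. Those of NIMIN3, TGA2 and TGA5 extend into a neighbouring locus, and TGA5 starts just downstream of TGA2 on chromosome 5.

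**Figure D1:**
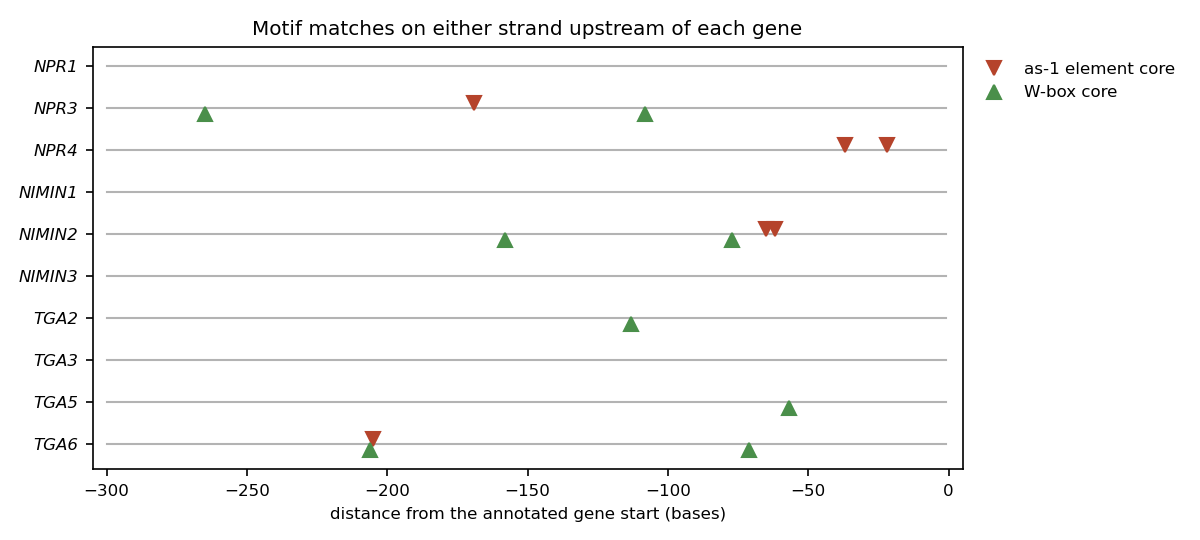
Positions of the 2 cores in the 300 bases before each of the 10 genes, with the distance from the annotated gene start in bases on the horizontal axis. Downward triangles mark TGACG (the as-1 element core) and upward triangles mark TTGAC (the W-box core) on either strand; 4 genes hold the first and 5 the second.

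Levels are given in CPM, the counts scaled by library size, and fold changes are log2 values from a fit over all 24 libraries with edgeR's quasi-likelihood test, called where the Benjamini-Hochberg adjusted p was under 0.05. Among the receptors, NPR1 had the widest range over the 8 groups. In OX seedlings NPR1 stood at 44.9, 46.0 and 53.7 CPM at 0 h, at 133.1, 133.3 and 133.5 at 1 h, at 44.0, 43.9 and 44.1 at 6 h, and at 55.1, 56.5 and 55.8 at 12 h. In WT seedlings it stood at 38.9, 31.4 and 39.6 CPM at 0 h, at 149.9, 156.8 and 148.5 at 1 h, at 41.5, 37.8 and 44.9 at 6 h, and at 50.6, 53.4 and 53.8 at 12 h. The 1 h libraries of both genotypes lay far above all others, every OX library exceeded every WT library at 0 h and at 12 h, and every OX library lay below every WT library at 1 h. NPR1 rose at 1 h by 1.47 ± 0.08 (log2, SE) in OX (adjusted p = 5e-13) and by 2.05 ± 0.08 in WT (adjusted p = 1.6e-15). At 12 h it was 0.21 ± 0.08 above 0 h in OX (adjusted p = 0.022) and 0.52 ± 0.08 in WT (adjusted p = 5.3e-06). The OX call at 12 h was lost without OX 0 h replicate 1 (adjusted p = 0.096) or replicate 2 (adjusted p = 0.071). At 6 h the changes were -0.13 ± 0.08 in OX and 0.18 ± 0.08 in WT (adjusted p = 0.18 and 0.069).

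The genotypes differed in NPR1 before treatment. At 0 h it was higher in OX, at 48.2 ± 4.79 CPM, against 36.6 ± 4.54 CPM in WT (SD, n = 3 each), a log2 difference of 0.39 ± 0.08 with an adjusted p of 0.0016 from edgeR's quasi-likelihood test. With only the 6 libraries of the groups compared in the fit, the difference was 0.36 and no longer passed (adjusted p = 0.07). Over the alternatives tried, its adjusted p ran from 1e-04 to 0.07. At 1 h the difference was -0.19 ± 0.08 (adjusted p = 0.17), and at 6 h and 12 h it was 0.09 ± 0.08 each time (adjusted p = 0.68 and 0.56). The response at 1 h was smaller in OX than in WT by 0.58 on the log2 scale, with an interaction of -0.58 ± 0.11 (adjusted p = 0.0014). That difference passed in every alternative tried, with values between -0.62 and -0.46. The same 0 h libraries enter this interaction and the genotype difference at 0 h. A pseudogene and a long noncoding RNA lie opposite the ends of NPR1 in the annotation, over 38 and 214 bases, and neither was among the loci counted.

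NPR3, by the authors' FPKM the most abundant of the 3 receptor genes at 0 h, rose at 1 h and at 12 h in both genotypes. In OX seedlings its libraries held 57.7, 59.6 and 53.1 CPM at 0 h, 66.2, 76.0 and 75.9 at 1 h, 49.7, 46.5 and 48.8 at 6 h, and 97.7, 78.2 and 97.0 at 12 h. In WT seedlings they held 64.8, 43.6 and 54.0 CPM at 0 h, 92.2, 97.7 and 84.2 at 1 h, 50.02, 50.1 and 43.4 at 6 h, and 95.5, 79.5 and 87.2 at 12 h. The 1 h and 12 h libraries stood above the 0 h libraries in both genotypes, and at 1 h no OX library reached the lowest WT library. The change at 1 h was 0.35 ± 0.11 in OX (adjusted p = 0.0089) and 0.76 ± 0.11 in WT (adjusted p = 5.1e-06). At 12 h NPR3 had risen by 0.68 ± 0.11 in OX and by 0.69 ± 0.11 in WT (adjusted p = 1.7e-05 and 1.2e-05). OX against WT at 1 h gave -0.33 ± 0.11, which did not pass (adjusted p = 0.092), and the interaction at 1 h was -0.40 ± 0.16 (adjusted p = 0.11).

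NPR4 rose slightly at 1 h and by more at 12 h. In OX its libraries held 20.1, 21.7 and 20.9 CPM at 0 h, 24.1, 25.1 and 25.5 at 1 h, 23.3, 23.7 and 21.5 at 6 h, and 40.8, 42.5 and 38.2 at 12 h. In WT they held 20.1, 21.4 and 21.7 CPM at 0 h, 25.0, 29.2 and 22.8 at 1 h, 20.2, 20.6 and 18.8 at 6 h, and 37.5, 36.7 and 32.5 at 12 h. Every 12 h library exceeded every library of the earlier times, and the OX libraries exceeded the WT libraries at 6 h and 12 h. NPR4 rose at 12 h by 0.96 ± 0.08 in OX (adjusted p = 3.9e-10) and by 0.76 ± 0.08 in WT (adjusted p = 1.5e-08), and at 1 h by 0.25 ± 0.08 and 0.29 ± 0.08 (adjusted p = 0.0082 and 0.0028). The genotype difference was 0.20 ± 0.08 at 6 h and 0.19 ± 0.08 at 12 h, neither of which passed (adjusted p = 0.24 and 0.19).

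The authors' FPKM, which are 1 value per group and scaled by length, allow the receptor genes to be compared with each other. At 0 h the order was NPR3, NPR1 and NPR4, with 27.6, 20.9 and 13.7 FPKM in OX and 26.7, 15.9 and 13.8 FPKM in WT. At 1 h NPR1 was the highest, at 57.6 FPKM in OX and 65.8 FPKM in WT. NPR1 then made up 52.9% of the summed FPKM of the 3 receptors in OX and 51.9% in WT. At 12 h its share was 25.2% in OX and 25.6% in WT, and NPR3 was again the highest, at 45.1 FPKM in OX and 43.3 FPKM in WT.

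**Figure D2:**
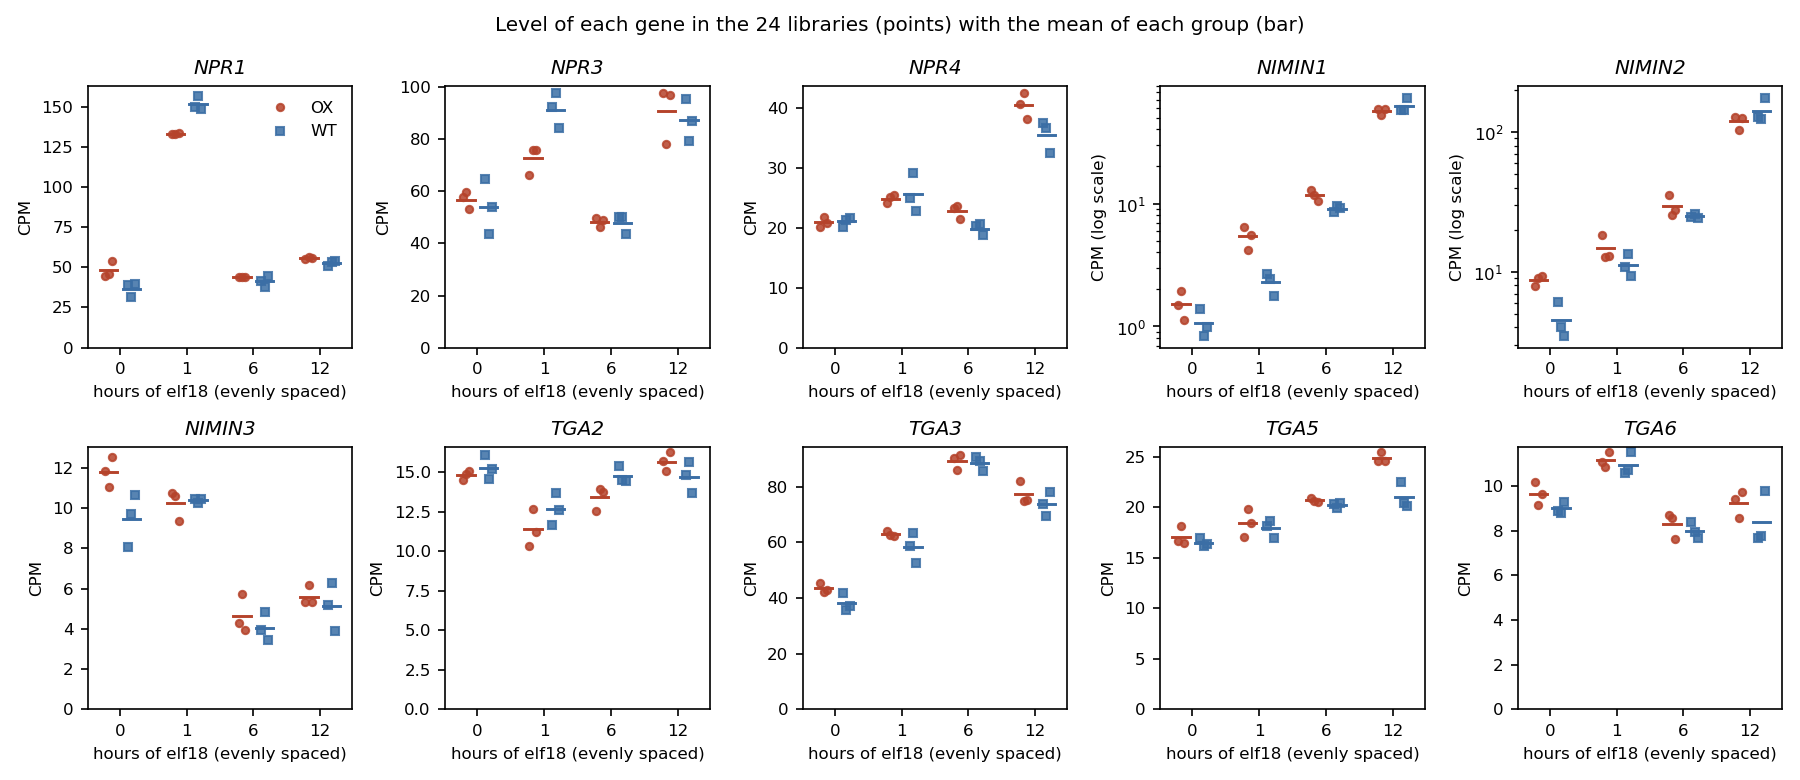
CPM of each of the 10 genes in the 24 libraries by hours of elf18, with OX (circles) left of WT (squares) and the group mean as a bar; the axes of NIMIN1 and NIMIN2 are on a log scale and the times are evenly spaced. NPR1 peaks at 1 h, NIMIN1 and NIMIN2 climb to 12 h, NIMIN3 is low from 6 h, and TGA3 is highest at 6 h.

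NIMIN1 and NIMIN2 had the widest range of the 10 genes, and NIMIN3 went the opposite way. In OX seedlings NIMIN1 was at 1.49, 1.95 and 1.12 CPM at 0 h, at 6.43, 4.19 and 5.55 at 1 h, at 12.98, 11.6 and 10.4 at 6 h, and at 58.7, 52.4 and 58.4 at 12 h. In WT seedlings it was at 1.39, 0.84 and 0.99 CPM at 0 h, at 2.68, 2.45 and 1.76 at 1 h, at 8.46, 9.53 and 9.17 at 6 h, and at 57.1, 58.0 and 72.2 at 12 h. Within each genotype the libraries of each time stood above all those of the time before it. The log2 change from 0 h in OX was 1.76 ± 0.19 at 1 h, 2.90 ± 0.18 at 6 h and 5.16 ± 0.18 at 12 h (adjusted p = 5.1e-08, 1.3e-11 and 3.6e-16). In WT it was 1.14 ± 0.22 at 1 h, 3.06 ± 0.19 at 6 h and 5.84 ± 0.19 at 12 h (adjusted p = 0.00013, 9.7e-12 and 1.1e-16). The mean of WT at 12 h was 58.2 times that of WT at 0 h, the widest span of group means among the 10 genes.

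NIMIN1 differed between genotypes at 1 h. It was at 5.39 ± 1.13 CPM in OX and 2.30 ± 0.476 CPM in WT (SD, n = 3 each), and the lowest OX library exceeded the highest WT library. The log2 difference was 1.16 ± 0.19 (adjusted p = 5e-04), and it passed in all 13 alternatives, with values between 0.98 and 1.36. At 0 h it was 0.54 ± 0.23 (adjusted p = 0.13), at 6 h 0.38 ± 0.15 (adjusted p = 0.24) and at 12 h -0.14 ± 0.14 (adjusted p = 0.57). The interaction at 1 h was 0.62 ± 0.30 and did not pass (adjusted p = 0.19), so a larger 1 h response in OX was not shown.

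NIMIN2 rose at every time in both genotypes and had the highest authors' FPKM of the 10 genes at 12 h. In OX its libraries held 7.88, 9.06 and 9.35 CPM at 0 h, 18.4, 12.7 and 13 at 1 h, 35.7, 25.3 and 27.7 at 6 h, and 129.1, 103.8 and 125.2 at 12 h. In WT they held 6.11, 4.03 and 3.495 CPM at 0 h, 10.9, 13.4 and 9.27 at 1 h, 24.9, 26.0 and 24.1 at 6 h, and 127.9, 123.4 and 175.4 at 12 h. All 3 OX libraries lay above the WT libraries at 0 h, and the genotypes overlapped at the later times. The log2 change from 0 h in OX was 0.76 ± 0.19 at 1 h, 1.77 ± 0.19 at 6 h and 3.78 ± 0.19 at 12 h (adjusted p = 0.0011, 4.4e-08 and 1.3e-13). In WT it was 1.28 ± 0.20 at 1 h, 2.43 ± 0.19 at 6 h and 4.93 ± 0.21 at 12 h (adjusted p = 7.9e-06, 5.7e-10 and 4.2e-15).

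At 0 h NIMIN2 was higher in OX, at 8.76 ± 0.78 CPM, against 4.54 ± 1.38 CPM in WT (SD, n = 3 each). The log2 difference of 0.90 ± 0.20 passed (adjusted p = 0.0032), also in all 12 alternatives, with values between 0.78 and 1.19. The differences at 1 h, 6 h and 12 h were 0.39 ± 0.19, 0.25 ± 0.18 and -0.25 ± 0.17 (adjusted p = 0.24, 0.58 and 0.39). The response at 12 h was smaller in OX than in WT, with an interaction of -1.16 ± 0.26 (adjusted p = 0.01) that passed in all 19 alternatives, with values between -1.45 and -0.98. It shares its 0 h libraries with the called difference of 0.90 at 0 h, and the difference at 12 h alone did not pass. The interactions at 1 h and 6 h were -0.52 ± 0.27 and -0.66 ± 0.27 and did not pass (adjusted p = 0.23 and 0.15). Both passed when a trend with transcript length was taken out, at -0.68 and -0.75 (adjusted p = 0.05 and 0.037, the first just under the threshold before rounding), and both without replicate 1 of OX at both 1 h and 6 h and replicate 3 of WT at 12 h, each the library of its own group with the lowest slope on length, at -0.70 and -0.81 (adjusted p = 0.048 and 0.03).

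NIMIN3, which binds a different part of NPR1 from NIMIN1 and NIMIN2, fell at 6 h and stayed below its 0 h level at 12 h. In OX its libraries held 11.9, 11.1 and 12.6 CPM at 0 h, 10.8, 10.6 and 9.35 at 1 h, 4.27, 5.75 and 3.93 at 6 h, and 5.33, 6.16 and 5.31 at 12 h. In WT they held 8.06, 9.71 and 10.6 CPM at 0 h, 10.5, 10.3 and 10.5 at 1 h, 3.92, 4.81 and 3.43 at 6 h, and 5.17, 6.29 and 3.86 at 12 h. The 6 h and 12 h libraries lay below all 0 h and 1 h libraries in both genotypes. NIMIN3 fell by 1.33 ± 0.15 in OX and by 1.19 ± 0.15 in WT at 6 h (adjusted p = 1.2e-07 and 5.6e-07). At 12 h it was down by 1.06 ± 0.15 in OX and by 0.85 ± 0.15 in WT (adjusted p = 1.1e-06 and 2.7e-05). OX against WT at 0 h gave 0.33 ± 0.14, with every OX library above every WT library, and did not pass (adjusted p = 0.13).

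In the authors' FPKM NIMIN3 was the highest of the NIMIN genes at 0 h and the lowest at 12 h, while NIMIN2 exceeded NIMIN1 at both times. At 0 h NIMIN3 was at 26.2 FPKM in OX and 20.8 FPKM in WT. NIMIN2 was then at 24.9 FPKM in OX and 12.9 FPKM in WT, and NIMIN1 at 4.40 FPKM in OX and 3.11 FPKM in WT. At 12 h NIMIN2 was at 343.2 FPKM in OX and 417 FPKM in WT, NIMIN1 at 163 FPKM in OX and 186.4 FPKM in WT, and NIMIN3 at 12.3 FPKM in OX and 11.7 FPKM in WT. The summed FPKM of the 3 NIMIN genes in OX were 55.5, 81.2, 128.4 and 518.5 at 0, 1, 6 and 12 h. In WT the sums were 36.9, 62.6, 106 and 615.1. The sums of the 3 receptors at 12 h were 95.8 FPKM in OX and 90.1 FPKM in WT, and those of the 4 TGA factors were 85.6 FPKM in OX and 80.7 FPKM in WT. The NIMIN transcripts are much shorter than the others, and how far FPKM depend on length was not tested. The size of the gap between these sums is therefore uncertain.

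Transcript length moved with time in these libraries. Log2 CPM per doubling of length was 0.152 to 0.272 in the 0 h libraries, -0.372 to -0.058 in the 1 h libraries, -0.106 to 0.179 in the 6 h libraries and -0.29 to -0.02 in the 12 h libraries. The NIMIN transcripts are the shortest of the 10, at 623, 683 and 655 bases for NIMIN1, NIMIN2 and NIMIN3, against 1693 to 2031 bases for the TGA factors and 2355 to 2622 bases for the receptors. With the length trend of each library taken out, the 12 h change of NIMIN1 was 4.79 in OX and 5.30 in WT, and that of NIMIN2 was 3.42 in OX and 4.40 in WT, so both calls were as before. NIMIN2 at 1 h in OX became 0.27 and lost its call (adjusted p = 0.14), while NIMIN3 at 1 h in OX became -0.69 and passed (adjusted p = 0.00082). The 0 h difference of NIMIN2 between OX and WT was 0.92 and the 1 h difference of NIMIN1 was 1.01 in that fit (adjusted p = 0.00044 and 0.00042). Among the receptors, NPR1 at 6 h in WT went from 0.18 to 0.25 and passed (adjusted p = 0.025). NPR4 at 6 h in OX went from 0.13 to 0.23 and passed (adjusted p = 0.016). The 1 h rises in OX became 0.65 for NPR3 and 0.47 for NPR4, with both calls as before.

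**Figure D3:**
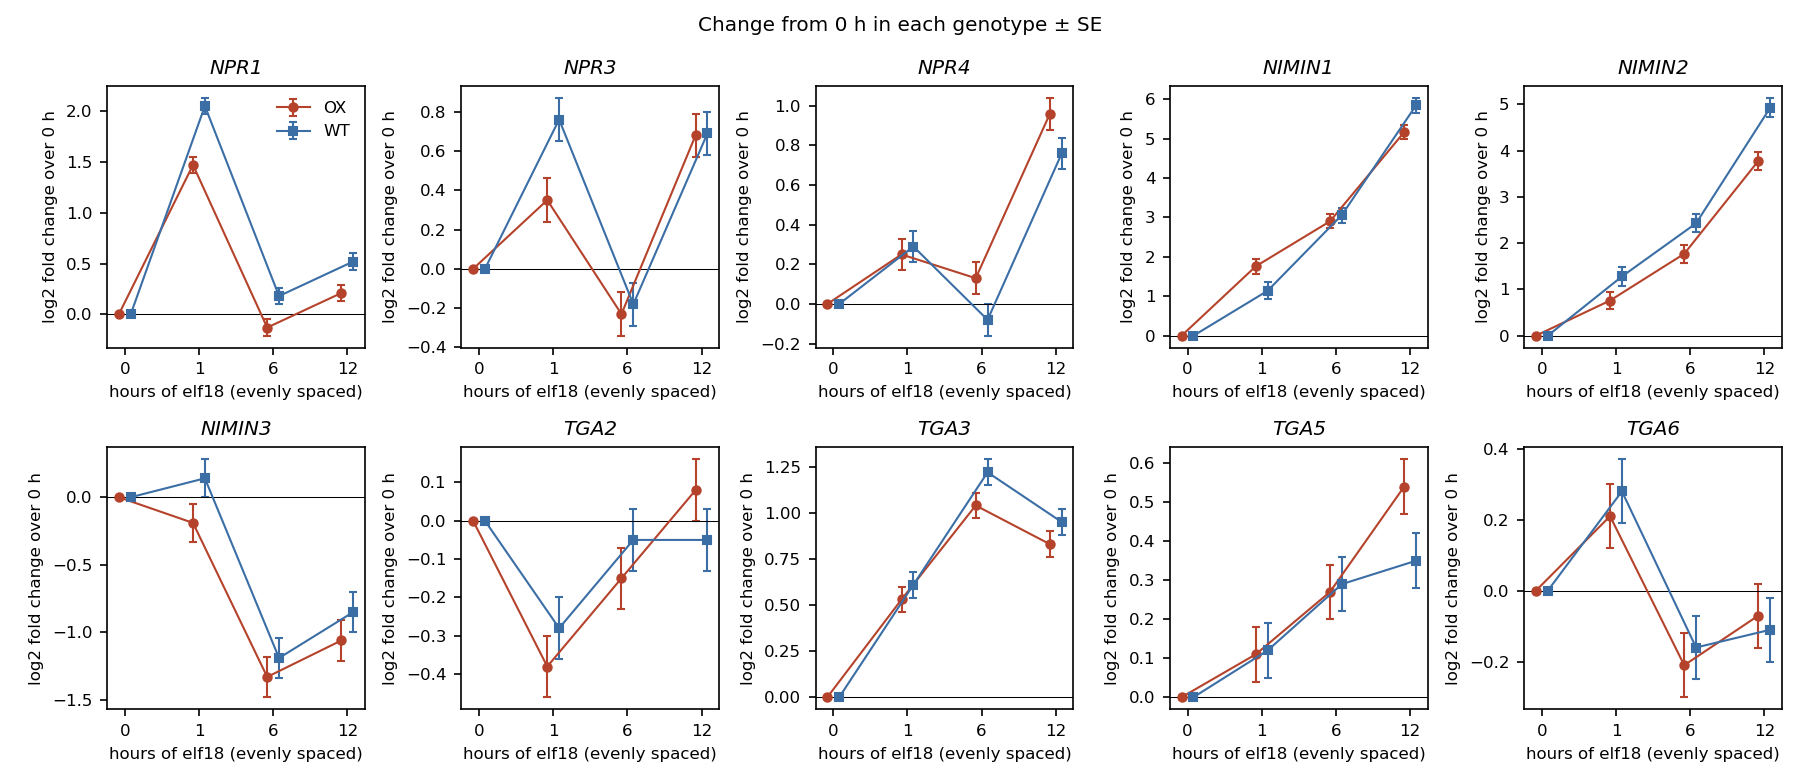
Log2 fold change of each gene over 0 h at 1, 6 and 12 h in OX (circles) and WT (squares), with the SE of the fit as bars, 0 h set to 0 and the times evenly spaced. The NPR1 curves are apart at 1 h, at 1.47 in OX and 2.05 in WT, and those of NIMIN2 at 12 h, at 3.78 in OX and 4.93 in WT.

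Of the TGA genes, TGA3 changed most. TGA3 is an activator of salicylic acid responses that binds NPR1. In OX its libraries held 45.4, 42.2 and 43.0 CPM at 0 h, 64.2, 62.5 and 62.2 at 1 h, 90.5, 86.2 and 91.4 at 6 h, and 82.0, 74.9 and 75.4 at 12 h. In WT they held 41.8, 35.6 and 37.0 CPM at 0 h, 58.7, 63.3 and 52.7 at 1 h, 90.8, 89.3 and 85.7 at 6 h, and 73.7, 69.5 and 78.3 at 12 h. The times did not overlap within either genotype, and 6 h was the highest in both. The log2 change in OX was 0.53 ± 0.07 at 1 h, 1.04 ± 0.07 at 6 h and 0.83 ± 0.07 at 12 h (adjusted p = 1.3e-06, 7e-11 and 1e-09). In WT it was 0.61 ± 0.07 at 1 h, 1.22 ± 0.07 at 6 h and 0.95 ± 0.07 at 12 h (adjusted p = 1.7e-07, 5.1e-12 and 1.2e-10). At 0 h OX against WT gave 0.19 ± 0.07, with no overlap of the libraries, and did not pass (adjusted p = 0.087); without WT 0 h replicate 1 it was 0.26 and passed (adjusted p = 0.019).

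TGA2, TGA5 and TGA6 moved less and not together. TGA5 rose at 6 h by 0.27 ± 0.07 in OX and 0.29 ± 0.07 in WT (adjusted p = 0.0013 and 0.00064), and at 12 h by 0.54 ± 0.07 in OX and 0.35 ± 0.07 in WT (adjusted p = 2.2e-07 and 6.8e-05). At 12 h it was at 24.6, 25.5 and 24.6 CPM in OX, against 22.5, 20.4 and 20.1 CPM in WT. These libraries did not overlap, and the difference of 0.24 ± 0.07 had an adjusted p of 0.062. TGA2 fell at 1 h by 0.38 ± 0.08 in OX (adjusted p = 0.00039), with 10.3, 12.7 and 11.2 CPM at 1 h against 14.5, 14.9 and 15.1 CPM at 0 h. In WT it fell at 1 h by 0.28 ± 0.08 (adjusted p = 0.0056), with 11.7, 13.7 and 12.6 CPM at 1 h against 16.1, 14.6 and 15.2 CPM at 0 h. The 1 h and 0 h libraries of TGA2 did not overlap in either genotype, but the WT call was lost without WT 1 h replicate 1 (adjusted p = 0.06).

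TGA6, the least abundant of the 4 by the authors' FPKM, ranged from 7.66 to 11.6 CPM over the 24 libraries. It rose at 1 h by 0.28 ± 0.09 in WT (adjusted p = 0.0076) and by 0.21 ± 0.09 in OX (adjusted p = 0.041). At 6 h it fell by 0.21 ± 0.09 in OX (adjusted p = 0.048), a call that held in 2 of 13 alternatives, and the change in WT was -0.16 ± 0.09 (adjusted p = 0.12). The 1 h call in OX was lost with only the libraries of the groups compared (adjusted p = 0.084) and without OX 0 h replicate 2, OX 0 h replicate 3 or OX 1 h replicate 3 (adjusted p between 0.052 and 0.10). The annotation places a long noncoding RNA opposite TGA6 over 894 bases, which was not among the loci counted, and the gene AT3G12260 opposite it over 44 bases. How the counting treated strand is not given, so reads of the 2 strands there cannot be told apart. Between the transcripts of the 10 genes, and between them and the other genes of the families, no stretch of 75 bases, the read length, was shared.

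By the authors' FPKM TGA3 made up 49.2, 58.7, 66.0 and 59.0% of the sum of the 4 TGA genes in OX at 0, 1, 6 and 12 h. In WT its share was 46.6, 56.6, 65.6 and 60.7%. At 0 h TGA3 was at 28.2 FPKM in OX and 24.8 FPKM in WT, TGA5 at 12.6 FPKM in OX and 12.0 FPKM in WT, TGA2 at 9.95 FPKM in OX and 10.3 FPKM in WT, and TGA6 at 6.63 FPKM in OX and 6.13 FPKM in WT. That order was the same in all 8 groups.

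Counted over the 10 genes, OX against WT gave 2 calls at 0 h, NPR1 and NIMIN2, both higher in OX, where 14.6% of all genes tested were called. At 1 h it gave 1, NIMIN1, higher in OX, where 5.70% of all genes were called. At 6 h and at 12 h it gave 0 with edgeR's quasi-likelihood test and 0 with DESeq2, and 2 genes at each time had an unadjusted p under 0.05. The share of all genes called was 1.52% at 6 h and 1.65% at 12 h, and 2995 and 4372 of 21015 genes had an unadjusted p under 0.05. The median log2 difference of the 10 genes was 0.15, 0.01, 0.08 and 0.08 at 0, 1, 6 and 12 h, beside 0.03, -0.01, 0 and 0.01 over all genes tested. At 0 h, where both calls lie, the summed CPM of 6 root marker genes was 1411 to 1599 in OX and 1682 to 2210 in WT, and that of 6 leaf marker genes was 17810 to 23030 in OX and 12640 to 21800 in WT. At 1 h, where NIMIN1 passed, the root sum was 1923 to 2190 in OX and 1489 to 1694 in WT, and the leaf sum 31480 to 37560 in OX and 25820 to 32970 in WT. The root sum is mostly 1 gene, PYK10, at 1392 CPM in OX and 1855 CPM in WT at 0 h (-0.41 ± 0.10, adjusted p = 0.0045) and at 1989 CPM in OX and 1514 CPM in WT at 1 h (0.39 ± 0.10, adjusted p = 0.016). The other 5 root markers did not pass at either time, and their differences had both signs. The part of this in the differences was not tested. Nor was that of the well, which the replicates of a condition shared.

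**Figure D4:**
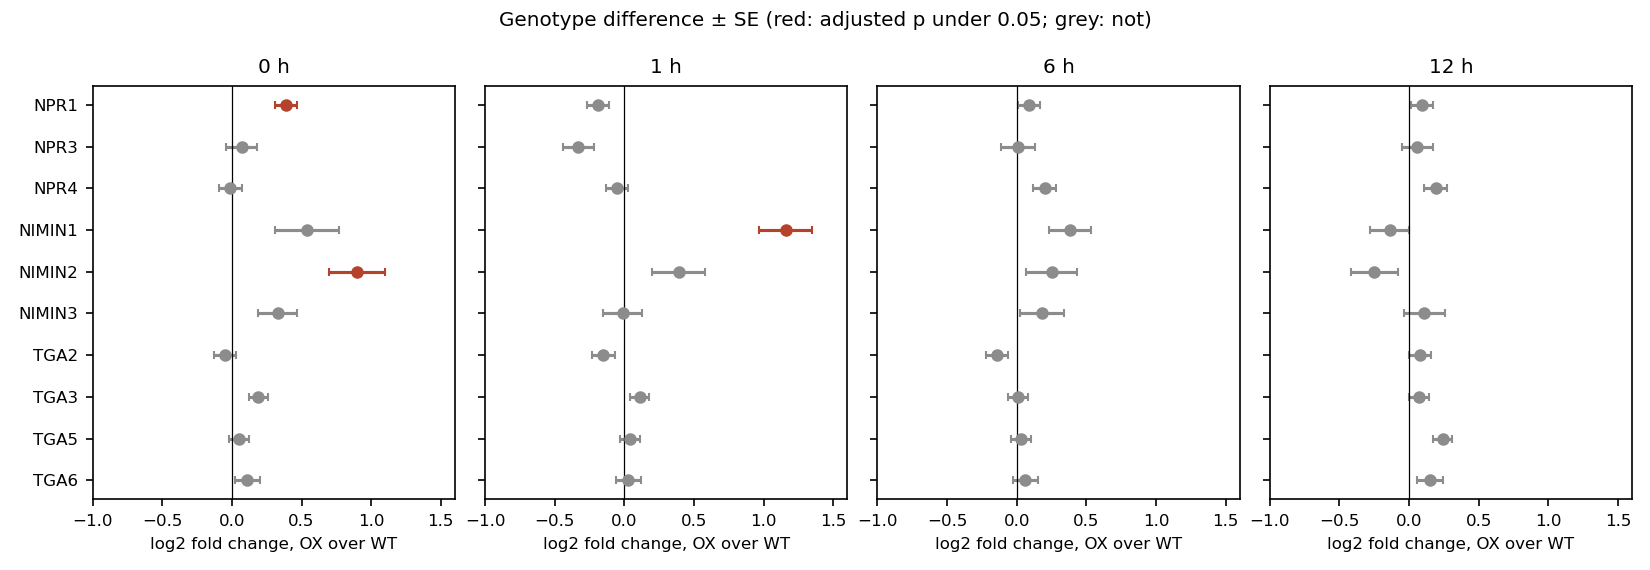
Log2 fold change of OX over WT for the 10 genes at 0, 1, 6 and 12 h, with the SE of the fit as bars; red points passed at an adjusted p under 0.05 and grey points did not. NPR1 and NIMIN2 passed at 0 h, at 0.39 and 0.90, and NIMIN1 at 1 h, at 1.16.

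Against 0 h, the number of the 10 genes called in OX was 8 at 1 h (7 higher, 1 lower), 6 at 6 h (4 higher, 2 lower) and 8 at 12 h (7 higher, 1 lower). Of all genes tested, 68.8%, 58.9% and 70.0% were called in those comparisons. In WT the number was 8 at 1 h (7 higher, 1 lower), 5 at 6 h (4 higher, 1 lower) and 8 at 12 h (7 higher, 1 lower), where 67.8%, 57.8% and 72.5% of all genes were called. These shares of members lie near those of all genes, so the counts alone say little about the 10 genes. The median log2 change of the 10 genes at 1, 6 and 12 h was 0.30, 0 and 0.61 in OX and 0.45, 0.06 and 0.61 in WT, against 0.01, 0 and -0.02 in OX and 0.01, -0.01 and -0.04 in WT over all genes tested. Comparisons of a genotype with 0 h share their 0 h libraries. The summed leaf markers also moved with time, and at 12 h lay between 3853 and 4235 CPM in OX and between 3948 and 4905 CPM in WT, well under their 0 h range. The root sum at 1, 6 and 12 h was 1923 to 2190, 1384 to 1583 and 1475 to 1502 CPM in OX and 1489 to 1694, 1082 to 1263 and 1299 to 1359 CPM in WT. It lay above its 0 h range in OX at 1 h, and under it in WT at 6 and 12 h. The part of these sums in the changes was not tested. The difference between genotypes in the response gave 1 call at 1 h (NPR1), 0 at 6 h and 1 at 12 h (NIMIN2), where 12.7%, 6.34% and 5.52% of all genes were called. At 6 h 2 of the 10 genes had an unadjusted p under 0.05, NPR1 at -0.30 ± 0.11 and NIMIN2 at -0.66 ± 0.27, and DESeq2 made 0 calls. Of all 21015 genes tested, 4206 had an unadjusted p under 0.05 there.

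When the 8 groups were put in order of their mean level, neighbouring groups often overlapped. For NPR1 the order from low to high was WT 0 h, WT 6 h, OX 6 h, OX 0 h, WT 12 h, OX 12 h, OX 1 h and WT 1 h. WT 0 h overlapped WT 6 h, WT 6 h overlapped OX 6 h and OX 0 h overlapped WT 12 h, while the other neighbours did not overlap. For NIMIN2 the order was WT 0 h, OX 0 h, WT 1 h, OX 1 h, WT 6 h, OX 6 h, OX 12 h and WT 12 h, with breaks after WT 0 h, after OX 1 h and after OX 6 h. For NIMIN1 the order was WT 0 h, OX 0 h, WT 1 h, OX 1 h, WT 6 h, OX 6 h, OX 12 h and WT 12 h. There WT 0 h overlapped OX 0 h, OX 0 h overlapped WT 1 h and OX 12 h overlapped WT 12 h, and the other neighbours did not overlap. For TGA2 all neighbours overlapped, and its highest group mean was 1.38 times its lowest.

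For the 3 genes of widest range, the genes of most similar course were found by the root mean square difference of the 8 group means of log2 CPM, each centred on its own mean. The closest to both NIMIN1 and NIMIN2 was AT4G19970, annotated as a nucleotide-diphospho-sugar transferase, at 0.36 from each. NIMIN1 was next closest to AT1G65481 at 0.42 and to ATGLR1.2, a glutamate receptor family gene, at 0.45. NIMIN2 was next closest to the aspartyl protease gene AT1G44130 and to AIR12, both at 0.37. NIMIN1 and NIMIN2 lay 0.50 apart, which placed NIMIN2 at rank 6 for NIMIN1 and NIMIN1 at rank 10 for NIMIN2 among 17699 genes. NPR1 was closest to the lectin receptor kinase gene AT4G29050 at 0.11, and then to NAK and AT1G76440 at 0.12 each.

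The relatives outside the 10 genes are NPR2, BOP1, BOP2, NIMIN1B (NIMIN1-like), TGA1, TGA4, TGA7, TGA9, TGA10 and PAN, and 0 of these 10 passed in OX against WT at any time, with 1, 1, 0 and 4 at an unadjusted p under 0.05 at 0, 1, 6 and 12 h. Of all genes tested, 14.6, 5.70, 1.52 and 1.65% passed at those times. An unadjusted p under 0.05 was found for 5680, 4499, 2995 and 4372 of 21015 genes. In OX 5, 4 and 6 of the 10 passed against 0 h at 1, 6 and 12 h, and in WT 8, 6 and 6, where the comparisons called 68.8, 58.9 and 70.0% of all genes tested in OX and 67.8, 57.8 and 72.5% in WT. NPR2, the closest relative of NPR1, rose at 1 h by 0.71 ± 0.10 in OX and 0.94 ± 0.10 in WT (adjusted p = 2.4e-06 and 3.6e-08). Unlike NPR1, it was highest at 12 h, at 1.12 ± 0.10 in OX and 1.16 ± 0.10 in WT (adjusted p = 1.3e-09 and 8.4e-10). NIMIN1B rose at 1 h by 1.21 ± 0.19 in OX and 1.24 ± 0.19 in WT (adjusted p = 9.9e-06 and 5e-06). At 12 h its change was 1.78 ± 0.19 in OX and 1.80 ± 0.18 in WT (adjusted p = 2e-08 and 1.1e-08). TGA1, a factor of another clade whose binding to NPR1 depends on its redox state, fell at 1 h by 0.27 ± 0.08 in OX and 0.32 ± 0.08 in WT (adjusted p = 0.0045 and 0.001). In the difference between responses, 1 of the 10 passed at 1 h, BOP1 at 0.89 ± 0.27 (adjusted p = 0.035), and 0 at 6 h and 12 h, with 0 and 2 at an unadjusted p under 0.05. Of all genes tested, 12.7, 6.34 and 5.52% were called in this difference at 1, 6 and 12 h. At 6 h and 12 h 4206 and 4228 of 21015 had an unadjusted p under 0.05.

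A list of 20 genes for proteins that modify, degrade or work with NPR1 gave 0 calls in OX against WT at 0 h, 6 h and 12 h, with 2, 3 and 2 at an unadjusted p under 0.05. Of all genes tested, 14.6, 1.52 and 1.65% passed at those times, and 5680, 2995 and 4372 of 21015 had an unadjusted p under 0.05. At 1 h 2 of the 20 passed, beside 5.70% of all genes tested. CDK8, a Mediator kinase that associates with NPR1, was at 29.2 CPM in OX and 38.8 CPM in WT (-0.41 ± 0.11, adjusted p = 0.029), and SUMO3, a modifier of NPR1, at 3.5 CPM in OX and 2.28 CPM in WT (0.65 ± 0.18, adjusted p = 0.031). CDK8 was also the 1 gene of the list whose 1 h response differed between the genotypes, by -0.64 ± 0.15 (adjusted p = 0.008). That comparison called 12.7% of all genes tested. Against 0 h 16, 12 and 14 of the 20 passed in OX at 1, 6 and 12 h, and 15, 7 and 17 in WT, beside 68.8, 58.9 and 70.0% of all genes tested in OX and 67.8, 57.8 and 72.5% in WT. TRX-H5, a thioredoxin that reduces NPR1 oligomers, rose at 1 h by 1.32 ± 0.20 in OX and 1.44 ± 0.20 in WT (adjusted p = 5.9e-06 and 2e-06).

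Of 20 genes known to respond to salicylic acid downstream of NPR1, 14 passed in OX against WT at 0 h, 13 higher and 1 lower, and the median of the list was 0.55. At 1 h, 6 h and 12 h 11, 8 and 4 passed, all higher in OX, with medians of 0.62, 0.47 and 0.16. Of all genes tested, 14.6, 5.70, 1.52 and 1.65% passed at 0, 1, 6 and 12 h. Because the list was chosen with earlier results of these data known, its counts are no independent test. DLO1, a salicylic acid hydroxylase gene, was at 6.61 CPM in OX and 1.79 CPM in WT at 0 h (1.85 ± 0.17, adjusted p = 1.5e-07). PR1, the usual marker of the pathway, was at 71.9 CPM in OX and 8.90 CPM in WT at 1 h (3.00 ± 0.31, adjusted p = 3.1e-06). GRX480, a glutaredoxin gene, was the 1 that was lower, at 2.52 CPM in OX and 4.95 CPM in WT at 0 h (-0.94 ± 0.31, adjusted p = 0.045). Against 0 h 13, 8 and 19 of the 20 passed in OX at 1, 6 and 12 h, and 17, 14 and 18 in WT, set against 68.8, 58.9 and 70.0% of all genes tested in OX and 67.8, 57.8 and 72.5% in WT. At 1 h 5 were higher and 8 lower in OX, and 8 higher and 9 lower in WT, with list medians of -0.34 and -0.37. At 6 h 4 were higher and 4 lower in OX, and 8 higher and 6 lower in WT, with medians of -0.07 and 0.21. At 12 h all those that passed were higher, with medians of 1.46 in OX and 1.92 in WT. The difference between responses passed in 9, 2 and 3 of the 20 at 1, 6 and 12 h, where 12.7, 6.34 and 5.52% of all genes were called. Those comparisons share their 0 h libraries with the genotype difference at 0 h.

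Genes of detoxification that depend on TGA2, TGA5 and TGA6 were lower in OX at 0 h. Because the list was chosen with earlier results of these data known, its counts are no independent test. All 14 on the list passed in OX against WT at 0 h, 13 lower and 1 higher, with a median of -1.39. In that comparison 14.6% of all genes tested passed. GSTU25, a glutathione transferase gene, differed by -2.49 ± 0.27 (adjusted p = 1.2e-06), and UGT74E2, a glucosyltransferase gene, by -2.41 ± 0.24 (adjusted p = 4.7e-07). SCL14, a GRAS protein on the list because it works with these TGA factors and not a detoxification gene itself, was the 1 that was higher (0.28 ± 0.07, adjusted p = 0.0069). At 1 h 5 passed, all lower, at 6 h 0 passed with 3 at an unadjusted p under 0.05, and at 12 h 1 passed, GSTU25 at -1.14 ± 0.28 (adjusted p = 0.042). The shares of all genes called at 1, 6 and 12 h were 5.70, 1.52 and 1.65%. At 6 h 2995 of all 21015 genes tested had an unadjusted p under 0.05. These transferases have close paralogs, and how reads shared between them were counted is not given. The difference between responses passed in 10, 13 and 11 of the 14 at 1, 6 and 12 h, where 12.7, 6.34 and 5.52% of all genes were called. In 9, 12 and 11 of these the interaction was positive, and in 1, 1 and 0 negative. Against 0 h 13, 5 and 8 of the 14 passed in OX at 1, 6 and 12 h. Of these 13, 3 and 5 were higher, and the list medians were 1.19, 0.16 and 0.09. In WT 6, 12 and 12 passed (4, 1 and 2 higher), with medians of 0.09, -1.15 and -1.03. Of all genes tested, 68.8, 58.9 and 70.0% passed in OX and 67.8, 57.8 and 72.5% in WT. A positive interaction could thus be a smaller fall, as for UGT74E2 at 12 h (-1.46 in OX and -3.19 in WT). Each interaction or comparison with 0 h reuses 0 h libraries behind the 0 h difference, so these calls are not independent of it. TGA2, TGA5 and TGA6 themselves were not called between genotypes at any time, with differences at 0 h of -0.05 ± 0.08, 0.05 ± 0.07 and 0.11 ± 0.09 (adjusted p = 0.77, 0.67 and 0.49).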

How the data were processed

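Read counts per locus, 1 column per library, and FPKM, 1 column per group, were deposited by the authors, per the file headers. Per the submitters' processing notes, TAIR10, DESeq2, Cuffdiff, Cufflinks 2.1.1 and TopHat2 2.0.8 were used, with no roles given. How reads were counted, and on which strand, is not given in the sources used here. The libraries were stranded and read as single reads of 75 bases, with the replicates of a condition pooled into 1 well, per the labels' protocols.

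The deposited counts were fitted with edgeR 4.0.16 in R 4.3.3 (TMM scaling, filterByExpr with a minimum count of 10, which left 21015 genes). All 24 libraries entered 1 quasi-likelihood fit with 8 group means, and Benjamini-Hochberg adjusted p-values over all genes under 0.05 counted as passed. OX was compared with WT at each time, each later time with 0 h within a genotype, and the genotypes in these responses (interaction). CPM were computed from the counts with TMM scaling. The TAIR10.1 annotation held 21330 of the loci and lacked 77.

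The 10 genes and the lists (family relatives, NPR1 partner and turnover machinery, salicylic acid response genes, detoxification genes, leaf and root markers) were chosen with earlier results of these data known. Named were all 10 genes and, from each list, genes among the 4 of smallest adjusted p per comparison or the 1 of the opposite direction. Not every gene that this rule allows was named. TRX-H5, NPR2, NIMIN1B and TGA1 fall under it at 1 h in OX. Same-numbered libraries deviated with correlations of -0.34 to 0.34 over 30 pairs. All 3 pairs exceeded 0.1 in 1 of 10 comparisons, OX against WT at 1 h, and the replicate number as a block changed no count of the 10 genes called there. Alternatives were no filter, RLE size factors, DESeq2 1.42.0, a fit to the groups compared alone, the block, a length offset, leaving out replicate 1 of OX at both 1 h and 6 h and replicate 3 of WT at 12 h, whose length trend was the lowest of their own groups, and leaving out each replicate.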

Additional observations from a re-analysis of the deposited data

Results flagged for a closer look

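The response of NPR1 at 1 h differed between the genotypes, with an interaction of -0.58 ± 0.11 on the log2 scale (edgeR's quasi-likelihood test, adjusted p = 0.0014). The mean at 0 h was 48.2 CPM in OX and 36.6 CPM in WT. That difference lost its call with only the libraries of the groups compared (adjusted p = 0.07). At 1 h the mean was 133.3 CPM in OX and 151.7 CPM in WT, a difference that did not pass (adjusted p = 0.17). The response of NIMIN2 at 12 h also differed between the genotypes, with an interaction of -1.16 ± 0.26 (adjusted p = 0.01). Its means were 8.76 CPM in OX and 4.54 CPM in WT at 0 h, and 119.4 CPM in OX and 142.2 CPM in WT at 12 h. Both interactions share their 0 h libraries with the genotype differences called at 0 h. With 3 libraries in a group, no test for a single outlying library was made.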

How the results depend on the processing

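Of 130 results for the 10 genes, 48 were called, 42 of these in every alternative, 6 were lost in at least 1, and 0 of the 48 changed direction; 13 others gained a call in at least 1, and some values that were not called changed sign. The number of the 10 genes called in OX against WT at 0 h, 2, became 1 with only the libraries of the groups compared, and ran from 2 to 4 on leaving out a library, with 4 without WT 0 h replicate 1 (NIMIN1 at 0.83 and TGA3 at 0.26 added, adjusted p = 0.035 and 0.019). For the interaction at 1 h, 1 became 2 with the transcript length offset and 2 on dropping replicate 1 of OX at both 1 h and 6 h and replicate 3 of WT at 12 h, and ran from 1 to 2 on leaving out a library (2 without WT 0 h replicate 1, with NPR3 at -0.54, adjusted p = 0.015). For the interaction at 6 h, 0 became 1 and 1 in these settings, and ran from 0 to 1 (NIMIN2 at -0.94, adjusted p = 0.026, without the same library). At 12 h, 1 ran from 1 to 2 (NIMIN1 at -0.97, adjusted p = 0.043, without that library). Counts over all genes moved further: OX against WT gave 3072, 1197, 319 and 346 calls at 0, 1, 6 and 12 h, with lowest and highest values of 1825 and 3675, 472 and 1488, 103 and 572, and 79 and 1018. The interaction gave 2668, 1333 and 1160, with 1659 and 3299, 691 and 2244, and 596 and 1705. The replicate number as a block left the number of the 10 genes called in OX against WT at 2, 1, 0 and 0, and at 8, 6 and 8 in OX, 8, 5 and 8 in WT and 1, 0 and 1 for the interaction. Low counts limit NIMIN1 most, at 0.842 CPM in its lowest library.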
